A study of Mus musculus with 9 samples.

Results

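From 55471 counted genes, 9 were singled out because their RNA was lower in cells given a short hairpin RNA (shRNA) against Oxct1 and because their 3′ UTR shares a short word with the 3′ UTR of Oxct1. They are Arf1, Ugdh, Eif4h, Rheb, Mrpl40, Chmp3, Bnip2, Oaz2 and Ebag9, and all 9 were among the 14918 genes abundant enough to be tested. The libraries come from mouse OT-I CD8+ T cells, whose transgenic receptor recognises an ovalbumin peptide, and every group shares this receptor, the culture and the infection. Control cells (n = 4 libraries) were Bdh1-WT and carried an shRNA against firefly luciferase (shCtrl). DKO cells (n = 5 libraries) were Bdh1-KO and carried shOxct1. Every library with the Oxct1 hairpin thus also lacked an intact Bdh1 gene, and effects of the 2 cannot be told apart. The groups may differ in more than these 2. Among all tested genes, Xist had the highest log2 fold change of DKO over control (6.81) and Tex11 the lowest (-8.17), and the cause of this was not tested. Naive cells were activated for 24 h with antibodies to CD3ε and CD28 and IL-2 at 50 U/mL, transduced, grown for 2 more days, sorted for the Ametrine reporter and transferred into CD45.1 C57BL/6 mice. The hosts were infected 1 day later with LmOVA, Listeria monocytogenes bacteria that make ovalbumin. Transferred cells were sorted again from the spleen as CD45.2 and Ametrine positive on day 7 after infection. The age of the animals and whether replicates came from separate donors or hosts are not stated in the labels, so errors and p-values measure the spread between libraries, which may be technical.

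An shRNA is cut inside the cell to a small guide RNA, which an Argonaute protein uses to find messenger RNAs with a complementary stretch. A long match, as with the intended target, leads to cleavage, while a match to only the few bases near the guide's 5′ end, called the seed, can lower other messenger RNAs through sites that lie mostly in 3′ UTRs, as microRNAs do. Such sites tend to be stronger when an A follows the matched bases in the messenger RNA. This is general background, and no source used here gives the sequence of the Oxct1 hairpin.

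The longest word found in the 3′ UTR of Oxct1 and in a 3′ UTR of every one of the 9 genes has 7 letters, GTAATCA, and it was the only shared word of that length. The 30 bases around each copy are shown because the word is all that these genes were known to share. At Mrpl40 site 3 the transcript ends early, and 28 bases are shown. The windows of Mrpl40 sites 2 and 3 overlap, so the lower-case start of site 3 holds the end of the word of site 2. Each is written 5′ to 3′ along the messenger RNA (as DNA, GRCm38, GENCODE M21 transcripts), with the shared word in capitals.
Oxct1: aaacggaaggatgtcaGTAATCAatagtta
Arf1: tttcaatacacaattaGTAATCAactgttt
Ugdh: aaacaaaaatatttttGTAATCAtcaaatt
Eif4h: catgcattgcgtggttGTAATCAaagctga
Rheb: tgttgtttaaaataatGTAATCAtcaaaat
Mrpl40 site 1: taggaacaaataaaggGTAATCAagagtat
Mrpl40 site 2: ccggctgtcatttattGTAATCAacaaata
Mrpl40 site 3: aatcaacaaataaaggGTAATCAaaagt
Chmp3: cttttatgaaggtggtGTAATCAaatgtat
Bnip2: aatgactaattatattGTAATCAttttata
Oaz2: agcatattattcacatGTAATCAccaatag
Ebag9: atactttgaactattaGTAATCAagactca

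The word stood on the plus strand of chromosome 15 in Oxct1, at chr15:4153845-4153851, 75 bases after the stop codon. In the 9 genes it lay at chr11:59211495-59211501 (minus strand, Arf1), chr5:65413842-65413848 (minus, Ugdh), chr5:134620074-134620080 (minus, Eif4h), chr5:24803355-24803361 (minus, Rheb), chr6:71579983-71579989 (plus, Chmp3), chr9:70007318-70007324 (plus, Bnip2), chr9:65689425-65689431 (plus, Oaz2) and chr15:44640595-44640601 (plus, Ebag9). Mrpl40 held 3 copies, all on the minus strand, at chr16:18872223-18872229, chr16:18872041-18872047 and chr16:18872023-18872029, and the other 8 genes held 1 copy each. All copies are exonic, in the annotated 3′ UTR, and none of the 9 genes held the word in its coding sequence.

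An A followed the word in Oxct1 and in 5 of the 9 genes, Arf1, Eif4h, Mrpl40 (at each of its 3 copies), Chmp3 and Ebag9. The next base was T in Ugdh, Rheb and Bnip2 and C in Oaz2. Upstream of the word the genes differed from Oxct1: of the 14 bases directly before it, between 0 (Chmp3, Oaz2) and 7 (Ugdh) were the same as in Oxct1. The windows held from 56.7% (Eif4h) to 86.7% (Ugdh and Bnip2) A and T. This includes the shared word, which is itself mostly A and T. The whole 3′ UTRs of the 9 genes held from 46.5% (Eif4h) to 69.2% (Ebag9). In 7 of the 9 genes a copy lay within 310 bases of the stop codon, whereas the copy of Arf1 lay 1032 bases and that of Eif4h 1428 bases after it. Not every annotated coding transcript carries the word: it is in 1 of 2 transcripts of Mrpl40 and Chmp3, 2 of 5 of Bnip2 and 3 of 4 of Oaz2, and gene counts do not separate these transcripts.

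**Figure D1:**
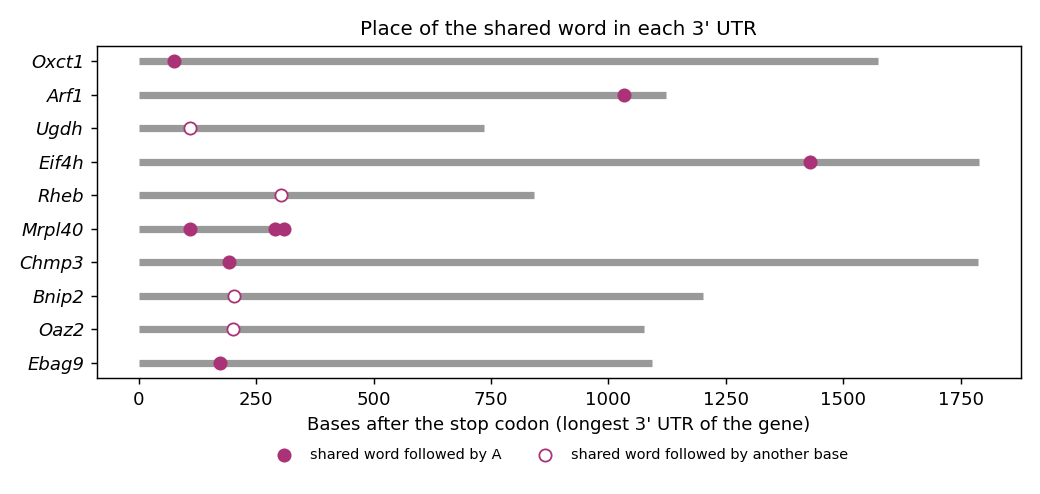
Place of the shared word in the longest annotated 3′ UTR of Oxct1 and the 9 genes. The x axis gives bases after the stop codon, grey bars give the length of the 3′ UTR, filled points mark copies followed by A and open points copies followed by another base; Mrpl40 has 3 copies in a 3′ UTR of 320 bases.

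The word is not rare. It occurred in a 3′ UTR of 1352 of 21699 genes with a coding transcript and an annotated stop codon (6.23%), and followed by A in 375 (1.73%). Genes with no bases annotated after the stop codon were not left out of the 21699. Only the messenger RNA strand was searched, and the longer word holds the shorter. Its reverse complement in RNA, UGAUUAC, was at bases 2 to 8 of 0 of the 1679 mature mouse microRNAs in the RefSeq table (GRCm38.p6).

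The libraries held between 45205993 and 59853080 counts in genes, and the lowest count of any of the 9 genes in any library was 893, so depth did not limit their values. Levels are given as CPM, the normalised read count after TMM scaling, a scaling of library sizes by a trimmed mean of ratios. The targeted genes were low in the libraries labelled DKO: Oxct1 had a mean of 63.1 ± 5.73 CPM over the 4 control libraries and 5.16 ± 0.369 CPM over the 5 DKO libraries (± SD, as for all means here), and Bdh1 at 30.5 ± 4.16 and 10.6 ± 1.24 CPM (exact permutation p 0.0159 for each, two-sided, the smallest that 4 against 5 libraries allow). Control replicate 1 stood apart on the first principal component of log2 CPM, at -55.3 against -6.46 to 16.3 for the other libraries, and 16.7% of its reads were unmapped against 10.3 to 12.3% elsewhere. All 7 CD8 T cell markers were above 1 CPM on average, and their sum was 6241 to 8381 CPM in the control libraries and 5677 to 6278 CPM in DKO. Markers of other cells were lower: the myeloid list summed to 227.9 to 262.7 CPM in the control libraries and 188.0 to 196.3 CPM in DKO (7 of 10 genes above 1 CPM, led by Cst3 and Ctss), the B cell list to 186.9 to 270.7 and 194.9 to 215.8 CPM (3 of 10, nearly all Ighm, with Pax5 at 0 in every library), the erythroid and platelet list to 10.3 to 34.3 and 15.9 to 53.5 CPM (5 of 6), and the CD4 list to 30.7 to 39.3 and 34.6 to 46.6 CPM (2 of 4). Of the NK cell list, Gzma, which effector CD8 cells also express, made up nearly all, and Ncr1 was at 0.0707 CPM in control. The myeloid sum was lower in every DKO library than in every control library, with Ctss at 81.1 and 51.2 CPM and Itgam at 58.9 and 38.1 CPM in control and DKO. Other genes of that list had higher means in DKO: Lyz2 was at 2.43 and 5.84 CPM, Csf1r at 1.84 and 2.37 CPM, S100a8 at 0 and 0.122 CPM and S100a9 at 0.0103 and 0.103 CPM, while Cd14 was at 0.359 and 0.334 CPM. The part of the myeloid sum in the falls described here was not tested. In sorted bulk cells, fewer cells of a type and less RNA per cell cannot be told apart.

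All 9 genes had lower RNA in DKO, at 49.2 to 67.0% of the control mean. The decrease of each was chosen for, so its size describes the genes and tests nothing. All 9 were called lower, meaning an adjusted p under 0.05 by quasi-likelihood in edgeR, as were 1.51% of the 14918 tested genes (225 genes). All 9 were also lower in every DKO library than in every control library, as were 4.09% of tested genes. The median of their log2 fold changes was -0.80, against -0.01 over all tested genes.

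Rheb encodes a small GTPase on lysosomes that, when loaded with GTP, switches on the growth kinase complex mTORC1, and the TSC complex switches it off. Its level in the 4 control libraries was 203.1, 149.8, 155.0 and 134.7 CPM, and in the 5 DKO libraries 87.3, 84.2, 84.2, 85.6 and 89.6 CPM. The DKO values sat close together and far from the control values, of which replicate 1 was the highest. The means were 160.7 ± 29.5 and 86.2 ± 2.29 CPM, or 53.6% of control (log2 fold change -0.90, SE 0.11).

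Arf1, Chmp3 and Ebag9 act in membrane traffic. Arf1 encodes a small GTPase of the Golgi that recruits the COPI and AP-1 coats to budding vesicles, and it was the most abundant of the 9 genes. It was counted at 580.8, 541.8, 542.9 and 554.5 CPM in the control libraries and at 354.3, 332.7, 332.0, 336.4 and 360.2 CPM in DKO. Both groups were tight, and the lowest control library was 1.5 times the highest DKO library. Arf1 fell from 555.0 ± 18.1 to 343.1 ± 13.2 CPM, or 61.8% of control (log2 fold change -0.69, SE 0.06).

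Chmp3 encodes a subunit of ESCRT-III, the filament that pinches off membrane buds during endosomal sorting and cell division. In control its levels were 92.7, 76.8, 70.8 and 65.8 CPM, and in DKO 44.0, 41.1, 45.1, 41.5 and 47.4 CPM. Control replicate 1 was again the highest, and the groups did not overlap. The mean went from 76.5 ± 11.7 to 43.8 ± 2.60 CPM (57.2% of control, log2 fold change -0.81, SE 0.10). A transcript of 1700040L08Rik overlaps it on the opposite strand, and its strand-specific counts summed to 1.14 times the unstranded count; with the strand sums the log2 fold change was -0.84.

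Ebag9 encodes a Golgi and secretory pathway protein that has been described as a brake on the release of lytic granules from cytotoxic T cells. Its control libraries were at 44.1, 34.4, 36.4 and 34.4 CPM and its DKO libraries at 19.7, 23.9, 22.5, 22.2 and 18.9 CPM. These DKO values were the least even of the 9 genes, with an SD of 9.65% of their mean, yet all lay below the lowest control library. The gene fell from 37.3 ± 4.62 to 21.4 ± 2.07 CPM, or 57.5% of control (log2 fold change -0.80, SE 0.11).

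Eif4h and Mrpl40 serve protein synthesis. Eif4h encodes an initiation factor that helps the helicase eIF4A unwind the 5′ end of messenger RNAs. It was at 326.6, 364.7, 361.6 and 399.1 CPM in the control libraries and 210.4, 214.6, 226.4, 220.5 and 230.3 CPM in DKO. Here control replicate 1 was the lowest of its group and not the highest, and it still exceeded every DKO library. The means were 363.0 ± 29.6 and 220.5 ± 8.18 CPM, or 60.7% of control (log2 fold change -0.72, SE 0.07).

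Mrpl40, the gene with 3 copies of the word, encodes a protein of the large subunit of the mitochondrial ribosome. Its control levels were 103.1, 70.9, 64 and 69.2 CPM, against 36.6, 38.2, 35.3, 37.6 and 41.2 CPM in DKO. It fell the most of the 9 genes, to 49.2% of control, from 76.8 ± 17.8 to 37.8 ± 2.22 CPM (log2 fold change -1.02, SE 0.13). Control replicate 1 was far above the other control libraries, and without it the log2 fold change was -0.86. Mrpl40 (chromosome 16, 18872018 to 18876862) lies 12.5 Mb from Bdh1 on the same chromosome. Of the 11 other tested genes within 500 kb of Mrpl40, 0 were called lower and 1 higher. With 1.51% of all tested genes called lower, 11 genes are too few to read anything from this.

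Ugdh and Oaz2 act in small-molecule metabolism. Ugdh oxidises UDP-glucose to UDP-glucuronate, the building block of glycosaminoglycans and of glucuronide conjugates. Control libraries held 73.5, 67.5, 65.1 and 64.4 CPM of Ugdh, and DKO libraries 39.3, 38.9, 36.0, 34.9 and 39.2 CPM. The gap was the widest of the 9 genes, the lowest control library being 1.64 times the highest DKO library. Its means were 67.6 ± 4.11 and 37.7 ± 2.05 CPM, or 55.7% of control (log2 fold change -0.84, SE 0.08).

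Oaz2 encodes an antizyme, a protein that binds ornithine decarboxylase, sends it to the proteasome and limits polyamine uptake. It was the lowest of the 9 genes in CPM, at 34.1, 32.8, 32.9 and 38.8 CPM in the control libraries and 22.6, 18.7, 21.4, 20 and 22.9 CPM in DKO. The 2 groups were apart, with similar relative spread (8.23% of the mean in control and 8.47% in DKO). Oaz2 fell from 34.7 ± 2.85 to 21.1 ± 1.79 CPM, or 61.0% of control (log2 fold change -0.71, SE 0.10).

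Bnip2 encodes a scaffold protein that binds BCL2 family proteins and regulators of the small GTPase CDC42. Its levels were 188.0, 181.0, 200.2 and 166.7 CPM in the control libraries and 119.0, 132.9, 121.2, 127.2 and 116.0 CPM in DKO. This was the smallest decrease and the narrowest gap, the lowest control library being 1.25 times the highest DKO library. The means were 184.0 ± 14 and 123.3 ± 6.78 CPM, or 67.0% of control (log2 fold change -0.58, SE 0.08). Gm28731 overlaps it on the opposite strand and its strand-specific counts summed to 1.14 times the unstranded count; with the strand sums the log2 fold change was -0.57.

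**Figure D2:**
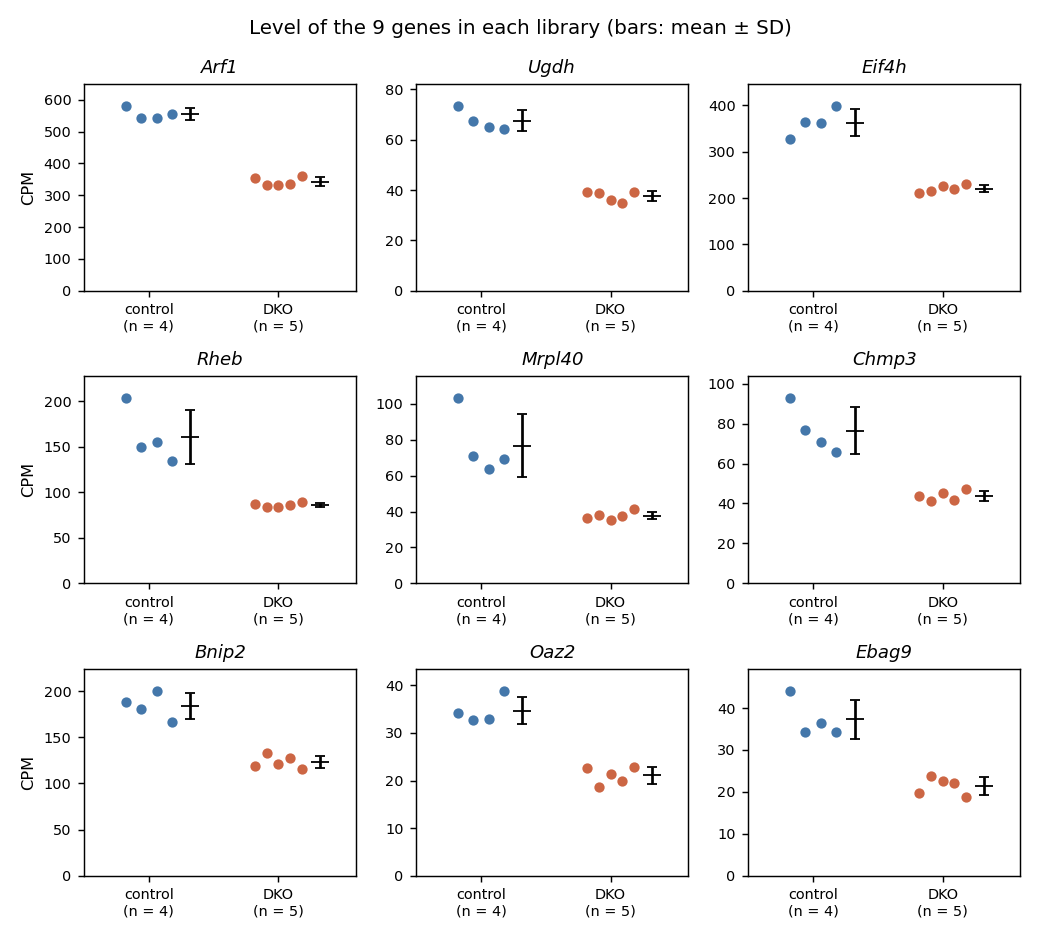
CPM of each of the 9 genes in every library, with y axes that start at 0; points are the 4 control (blue) and 5 DKO (orange) libraries and bars give the mean ± SD. In every panel all DKO points lie below all control points, and the control libraries spread most for Rheb, Mrpl40 and Chmp3.

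The decreases were even across DKO libraries. Taken as a percent of each gene's control mean, the 9 genes had medians of 58.0, 57.4, 59.8, 57.7 and 61.9% in DKO replicates 1 to 5, and no DKO library was above 72.3% for any of them (Bnip2 in replicate 2). The SD of DKO libraries was 2.66% (Rheb) to 9.65% (Ebag9) of their mean. Control libraries spread more in 7 of the 9 genes, all but Arf1 and Oaz2. Over the 9 genes the SD of control libraries was 3.27% (Arf1) to 23.2% (Mrpl40) of their mean. Control replicate 1 was the highest control library in 6 of the 9. Set against Oxct1, at 8.17% of control, the remaining levels of the 9 genes were high.

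**Figure D3:**
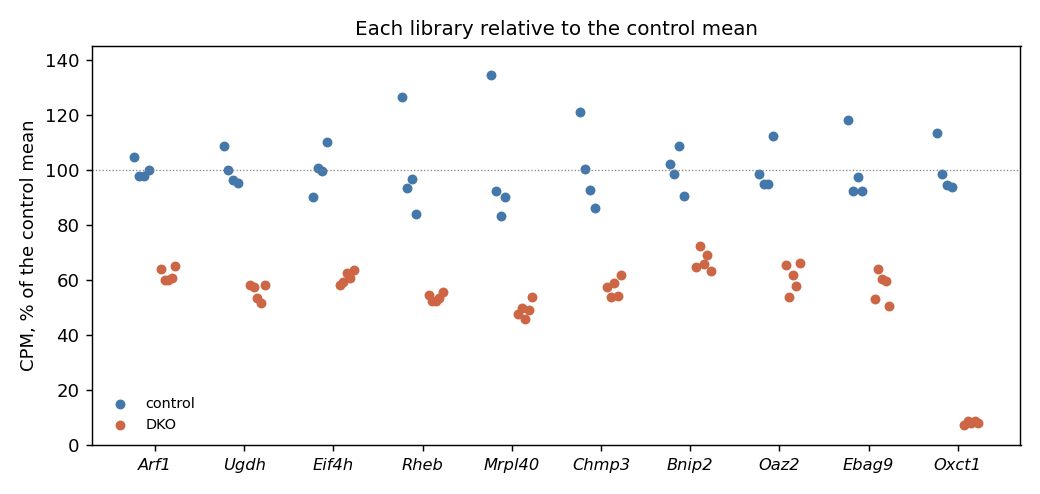
CPM of the 9 genes and of Oxct1 in each library as a percent of the gene's control mean (y axis); blue points are control libraries and orange points DKO libraries, and the dotted line marks 100%. DKO libraries of the 9 genes lie between 46 and 72.3%, and those of Oxct1 between 7.29 and 8.73%.

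Levels between genes were compared per kilobase of exonic sequence, as CPM per kb in control. The length used joins all annotated exons of a gene, of every transcript. It was 7721 bases for Rheb and 6752 bases for Ugdh, each with 1 coding transcript and a 3′ UTR of 841 and 735 bases. Which exons the cells used was not measured, so the order between genes depends on this length and may set such genes too low. Arf1 was highest at 265.7 ± 8.68, followed by Eif4h at 65.4 ± 5.34, Bnip2 at 53.2 ± 4.05, Mrpl40 at 43.6 ± 10.1, Chmp3 at 23.6 ± 3.59, Rheb at 20.8 ± 3.83, Ebag9 at 15.2 ± 1.88, Oaz2 at 11.6 ± 0.954 and Ugdh at 10 ± 0.608 CPM per kb (SD, n = 4). The ranges of the control libraries overlapped for Bnip2 and Mrpl40, for Chmp3 and Rheb, and for Rheb and Ebag9. Within a library, Chmp3 was above Rheb and Rheb above Ebag9 in 4 of 4, and Bnip2 was above Mrpl40 in 3 of 4, so only this last pair changed order between libraries. The order of abundance by this measure was not the order of decrease: Arf1, at its top, kept 61.8% of its control level, and Ugdh, at its bottom, 55.7%.

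The other genes of these pathways were taken from 10 lists, drawn up by function but with earlier results of these data known, with 210 genes tested. Of them, 1 was called lower and 0 higher by the quasi-likelihood test of edgeR, while 25 (11.9%) had an unadjusted p under 0.05, and the median log2 fold change of the 210 was 0.01. Over all tested genes 2.83% were called in either direction and 16% had an unadjusted p under 0.05, the share against which each list's count at that level is to be read. The gene called was Mtap of the polyamine list, which recycles the methylthioadenosine left by polyamine synthesis. It was at 74.9, 74.2, 71.6 and 74.5 CPM in the control libraries and 40.7, 41.7, 42.5, 49.6 and 40.4 CPM in DKO, with no overlap. Mtap fell from 73.8 ± 1.5 to 43.0 ± 3.79 CPM (a log2 fold change of -0.78, SE 0.08, edgeR adjusted p 8.09e-04), and it holds the word in neither its 3′ UTR nor its coding sequence. The DESeq2 test called Mtap, Hgs and Pabpc1, limma-voom these and Mrpl28, and edgeR without control replicate 1 Mtap, Rptor and Mrpl28; apart from Mtap these genes are named because the tools called them, after their values were seen.

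Around Rheb, 0 of 29 mTORC1 pathway genes passed in edgeR, DESeq2 or limma-voom, with 3 (10.3%) at an unadjusted p under 0.05 and a median log2 fold change of 0.08. Rhebl1, the closest relative of Rheb, was at 18.8 ± 1.43 CPM in the control libraries and 16.7 ± 1.91 CPM in DKO (a log2 fold change of -0.17, SE 0.11, edgeR adjusted p 0.504). Tsc2, a subunit of the complex that turns Rheb off, was at 84.4 ± 27.1 and 103.7 ± 9.90 CPM (edgeR adjusted p 0.520). Control replicate 1 held 44.3 CPM of Tsc2 and the other 3 control libraries 94.1 to 103.8 CPM.

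Of 26 ARF and coat genes, 0 passed in any of the 3 tools, and 5 (19.2%, near the 16% of all tested genes) had an unadjusted p under 0.05 in edgeR. A positive log2 fold change was found in 20 of the 26 (median 0.16), as in 7246 of all 14918 tested genes. Arf3, which is closely related to Arf1, was at 236.1 ± 45.1 and 269.8 ± 17.7 CPM (log2 fold change 0.19, SE 0.12, edgeR adjusted p 0.493), and Arf5 at 272.8 ± 48.4 and 282.5 ± 14.2 CPM (edgeR adjusted p 0.862). Among 25 ESCRT genes 0 passed in edgeR, 4 (16%) had an unadjusted p under 0.05, and DESeq2 and limma-voom each called 1, Hgs, an early ESCRT subunit that binds ubiquitin-tagged cargo (92.5 ± 10.2 and 113.7 ± 4.67 CPM). Chmp2a, another ESCRT-III subunit, was at 147.0 ± 39.7 and 139.5 ± 4.27 CPM (edgeR adjusted p 0.835). Of 14 granule exocytosis genes, 0 passed in any tool and 0 had an unadjusted p under 0.05 in edgeR; Snapin, a SNARE-binding protein with which Ebag9 is known to interact, was at 105.7 ± 16.8 and 91.7 ± 5.21 CPM (edgeR adjusted p 0.379).

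Among 16 genes of cap-dependent initiation 0 passed in edgeR, with 1 (6.25%) at an unadjusted p under 0.05, Pabpc1, the poly(A)-binding protein, which DESeq2 and limma-voom called (361.8 ± 20.2 and 435.0 ± 39.4 CPM). Eif4b, which like Eif4h stimulates eIF4A, was at 139.1 ± 14.4 and 158.3 ± 9.83 CPM (log2 fold change 0.19, SE 0.09, edgeR adjusted p 0.335). The large mitochondrial ribosomal subunit was the longest list: 0 of 47 genes other than Mrpl40 passed in edgeR or DESeq2, 1 (2.13%) had an unadjusted p under 0.05, and limma-voom called Mrpl28 (44.0 ± 7.82 and 52.1 ± 5.02 CPM). In this list 36 of the 47 log2 fold changes were negative, against 51.4% of all tested genes, and the median was -0.09. The lowest was -0.29, for Mrpl17. Mrpl40, at -1.02 (-0.86 without control replicate 1), was chosen for its decrease, so its distance from this list tests nothing.

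In the glycosaminoglycan list 0 of 15 genes passed in any of the 3 tools and 3 (20%) had an unadjusted p under 0.05 in edgeR (median log2 fold change 0.05). Of 18 polyamine genes, 1 passed, Mtap, and 3 (16.7%) had an unadjusted p under 0.05. Oaz1, the major antizyme, was at 361.9 ± 72.1 and 382.3 ± 26.6 CPM (log2 fold change 0.08, SE 0.12, edgeR adjusted p 0.791). Odc1, the ornithine decarboxylase that antizymes bind, was at 48.6 ± 7.06 and 39.8 ± 3.82 CPM (log2 fold change -0.29, edgeR adjusted p 0.232). None of 8 BNIP2 relatives and partners passed in any tool, 2 (25%) had an unadjusted p under 0.05 in edgeR, and Bnip3, which holds the word, was at 1.25 ± 0.471 and 0.754 ± 0.0549 CPM (log2 fold change -0.73, SE 0.28, edgeR adjusted p 0.233). Of 12 genes of the small RNA silencing machinery 0 passed in any tool and 3 (25%) had an unadjusted p under 0.05 in edgeR; Ago2, the Argonaute that can cleave a matched target, itself holds the word and was at 44.2 ± 4.87 and 51.6 ± 3.65 CPM (edgeR adjusted p 0.281).

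**Figure D4:**
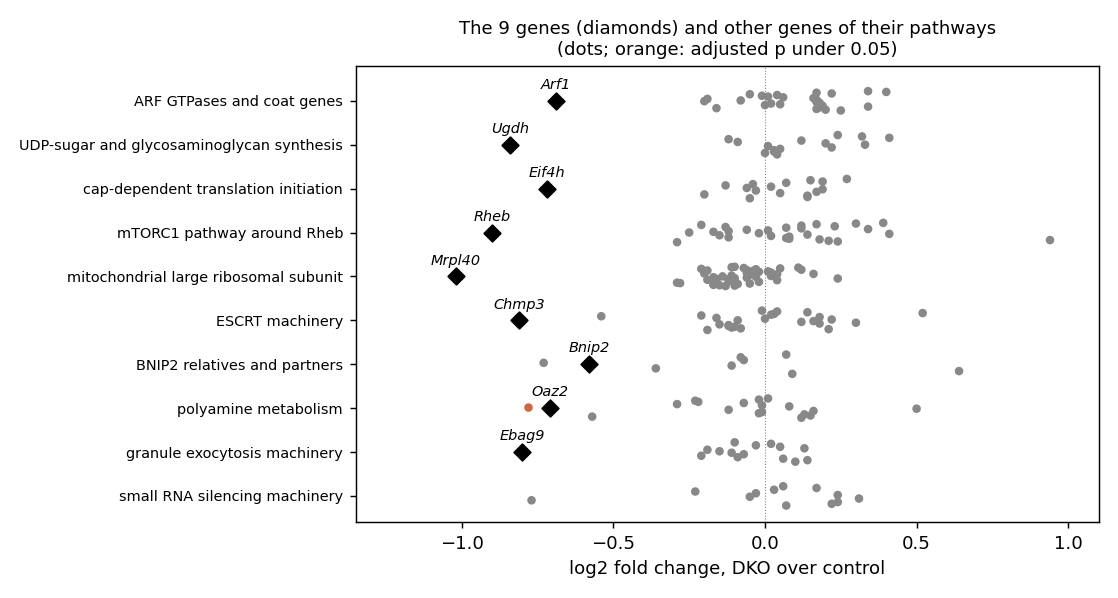
Log2 fold change of DKO over control (x axis) for the 9 genes (black diamonds) and for the other tested genes of their pathways (dots), with 1 row per list; the last row has none of the 9 genes. Orange marks the only other gene with an adjusted p under 0.05, Mtap; the lists centre between -0.09 and 0.16.

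The word alone did not mark a decrease of this size. Of 779 tested genes with the word in a 3′ UTR, Oxct1 and the 9 genes included, 51 were called lower (6.55%) and 4 higher (0.513%). A negative log2 fold change was found in 470 of the 779 (60.3%), and the median was -0.06. Among the 10746 other tested genes with an annotated stop codon, which hold no copy in a 3′ UTR, 1.35% were called lower and 1.70% higher. In 46.2% of these the log2 fold change was negative, with a median of 0.02. Without Oxct1 and the 9 genes, 41 of 769 genes with the word were called lower (5.33%). That count moved with single libraries: it was 93, 26, 33 and 22 without control replicates 1 to 4, and 17, 27, 16, 25 and 21 without DKO replicates 1 to 5. The count of all genes called lower moved too, from 225 to between 96 and 427, so that the 41 genes were 18.2% of lower calls and their counterparts 15.5 to 21.8% without 1 library. These totals of lower calls still include Oxct1 and the 9 genes. The share to read this against is that of the 769 genes with the word among all 14918 tested genes. Over all 21699 genes with an annotated stop codon, tested or not, 6.23% held the word in a 3′ UTR. The word was picked in earlier work on this same contrast, so these shares describe it and are no independent support.

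The shares also differed by what followed the word and by where it lay. Of 195 tested genes with the word followed by A, Oxct1 and the 9 genes left out, 16 were called lower (8.21%) and the median log2 fold change was -0.11. Where another base followed, 25 of 574 were called lower (4.36%) with a median of -0.05. With 1 copy of the word 35 of 711 were called lower (4.92%, median -0.05), and with 2 or more copies 6 of 58 (10.3%, median -0.13). In genes with the word in the coding sequence and not in the 3′ UTR, 14 of 363 were called lower (3.86%, median -0.03). The word without its first base, where the whole word was absent, gave 29 of 2126 (1.36%, median 0.03), and without its last base 14 of 1227 (1.14%, median 0.03). These differences between sets of genes were not tested.

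**Figure D5:**
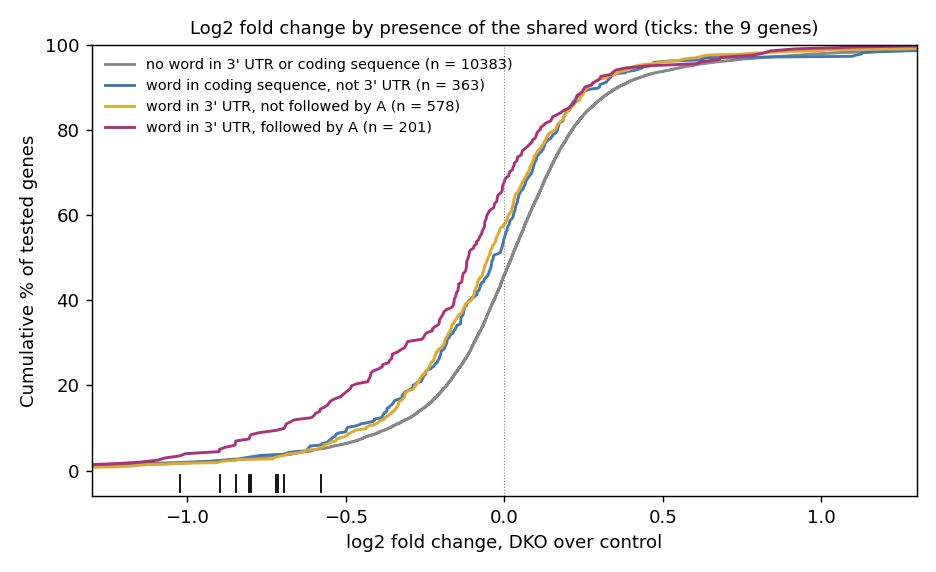
Cumulative percent of tested genes (y axis) by log2 fold change of DKO over control (x axis, values beyond 1.3 in either direction not shown), for genes without the shared word, with it in the coding sequence only, and with it in the 3′ UTR followed by another base or by A; ticks mark the 9 genes. The curve for the word followed by A lies farthest to the left, with a median of -0.11 and 67.2% of its genes below 0. These values include Oxct1 and those of the 9 genes in that set, which were chosen for their decrease. With them left out the median was -0.11 and 66.2% were below 0.

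Ordered by unadjusted p among genes with the word and a negative log2 fold change, Oxct1 was at rank 1, and the 9 genes held ranks 4 to 6 and 8 to 13. The rule names no threshold, and 3 other genes stood among them. Fcgr2b, an inhibitory Fc receptor, was at 45.4 ± 6.66 CPM in the control libraries and 13.2 ± 1.5 CPM in DKO, or 29.1% of control. Cat, which encodes catalase, was at 201 ± 18.3 and 95.7 ± 3.77 CPM, or 47.6%, and Zfp808, a zinc finger gene with 6 copies of the word, at 7.25 ± 0.627 and 3.27 ± 0.359 CPM, or 45.0%. Zfp808 belongs to a family of similar genes whose reads may be split between copies, which makes its value uncertain. Just inside, Ebag9 had a log2 fold change of -0.80, and just outside, AI987944 had -0.67 (36.7 ± 2.79 and 23.0 ± 1.73 CPM) and Rnf34, a ubiquitin ligase gene, -0.51 (72.8 ± 3 and 51.0 ± 2.32 CPM).

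Neighbouring genes were examined as well. Within 500 kb of them, 148 other genes were tested, of which 4 were called lower (2.7%, against 1.51% of all tested genes) and 3 higher (2.03%, against 1.32%). Those called lower were Klhl5 near Ugdh, which also holds the word, Mettl27 near Eif4h, Galnt11 near Rheb and Cd8b1 near Chmp3; these names were chosen after their values were seen. The median log2 fold change of the neighbours was between -0.06 and 0.18 for 7 of the 9 genes, -0.18 around Chmp3 (22 genes) and -0.38 around Ebag9, where all 4 tested neighbours had negative values and 0 were called. Ugdh (65413221 to 65435949), Eif4h (134619721 to 134639490) and Rheb (24802823 to 24842624) lie on chromosome 5, Bnip2 (69989466 to 70008317) and Oaz2 (65668001 to 65690300) on chromosome 9, Arf1 (59211412 to 59228270) on chromosome 11, Chmp3 (71543797 to 71582609) on chromosome 6, and Ebag9 (44619175 to 44641515) on chromosome 15, 40.5 Mb from Oxct1. All 9 genes are protein-coding in GENCODE M21. Besides the overlaps of Chmp3 and Bnip2, Gm28539 overlaps Mrpl40 on the opposite strand (strand sum 1.01 times the unstranded count). On the same strand, Gm43289 and Gm43552 overlap Ugdh and Gm25363 overlaps Rheb. Strand-specific counts cannot separate genes on the same strand, and the effect of these overlaps was not tested.

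The genes whose log2 CPM over the 9 libraries was most like the mean profile of the 9 genes were Wfikkn2 (Pearson r 0.992), Hsf4 (0.982), Tmem159 (0.980), Ghitm (0.980) and As3mt (0.979). None of these 5 holds the word in a 3′ UTR. Their levels went from 6.43 ± 0.657 to 1.98 ± 0.193 CPM, 4.35 ± 0.445 to 1.91 ± 0.209 CPM, 16.1 ± 2.22 to 9.30 ± 0.328 CPM, 450.7 ± 21.4 to 348.5 ± 12.2 CPM and 205.9 ± 20.7 to 111.3 ± 11.4 CPM in that order. The libraries form 2 groups, so these correlations mostly restate the difference between them.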

How the data were processed

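Raw gene counts, not normalised, were deposited by the authors for each of the 9 libraries in the layout that STAR writes. Per the submitters' processing notes, Trim Galore 0.6.0, STAR 2.7.8a and mm10 were used; the annotation used is not stated there. The unstranded count was used, since the strand columns were nearly equal (49.9 to 50.1% in the first). Of 55471 identifiers, 55144 matched GENCODE M21 (GRCm38) without the version number. Summary lines of the count files stayed out (unmapped 10.3 to 16.7%, multimapping 5.80 to 6.79%, no feature 4.01 to 5.20%, ambiguous 4.97 to 5.31% of reads). PolyA RNA was made into libraries with Takara SMART-Seq v4 and Nextera Flex, which have no molecular identifiers.

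Tests used edgeR 4.0.16 in R 4.3.3 (quasi-likelihood, robust, TMM, filterByExpr with a minimum count of 10, Benjamini-Hochberg adjustment over 14918 genes, threshold 0.05); the SE is the log2 fold change divided by the root of F. DESeq2 1.42.0, limma-voom (limma 3.58.1), DESeq2 size factors, other count filters, strand sums, the replicate block and leaving out each library were alternatives. The exact permutation test of the targeted genes was two-sided. Log2 CPM used a pseudocount of 0.5. 3′ UTR sequences were cut from GENCODE M21 transcripts after the stop codon (Python 3.11.15); the steps were tested on simulated data.

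The 9 genes, the word and the gene lists were chosen with earlier results of these data known. Named are the 9 genes, both targets, called genes and fixed relatives of the lists, the 5 other genes with the word and the lowest p among those lower, and the 5 most alike genes; a few list genes (Tsc2, Snapin, Odc1, Ago2) were added for their role, outside this rule and after their values were seen. The names of the genes with the word that were called higher are not reported here.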

Additional observations from a re-analysis of the deposited data

Results flagged for a closer look

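In 5 of 58 groups of libraries, 1 library lay far from the rest of its group, by the gap to its nearest neighbour as a share of the range (chance gives about 1 in 20). None of them concerned the 9 genes or their targets. Control replicate 1 held 168.8 CPM of Arf3, where the nearest control library held 252.5 CPM. It also held 20.9 CPM of Rhebl1 (nearest 18.2 CPM) and 206.2 CPM of Chmp2a (nearest 131.0 CPM). DKO replicate 4 held 49.6 CPM of Mtap (nearest 42.5 CPM) and 8.75 CPM of Tmem159 (nearest 9.35 CPM).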

How the results depend on the processing

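All 9 genes kept a negative log2 fold change under all 16 alternatives, the widest range being -1.10 to -0.86 for Mrpl40. All 9 also stayed called without each library in turn. The 9 genes were chosen for their decrease in these same libraries, so this describes their values and tests nothing. Oxct1 and Bdh1 kept their call throughout (log2 fold change -3.64 to -3.49 and -1.62 to -1.44). The count of 422 genes called was 1038 with DESeq2, 996 with limma-voom, and 179 to 749 without 1 library. The 41 other genes with the word, of 225 called lower, became 78 of 543 with DESeq2 and 97 of 535 with limma-voom. They were 16 to 93 without 1 library, and 39 with the longest transcript of each gene alone. Shortening the word can only add genes, and gave 70 without its first base and 55 without its last. The 1 called gene of the pathway lists became 3 with DESeq2, 4 with limma-voom, and 1 to 3 without 1 library. With the replicate number of the titles as a block the counts were 67 genes in all, 39 of them lower. They held 6 of the 9 genes (Bnip2, Oaz2 and Ebag9 were lost), 4 other genes with the word, called lower, and 1 pathway gene. Libraries with the same number in their titles did not deviate together (correlations -0.213 to 0.0229). The submitters' short name for control replicate 4 is wt5, however, so their own numbering would match it with DKO replicate 5. A block by that numbering was not tried, so whether the libraries are paired is not settled. The uncalled log2 fold changes of Arf5 (-0.03 to 0.16) and Chmp2a (-0.16 to 0.12) crossed 0 when 1 library was left out. The cause of these shifts was not tested. Intervals from depth play no part, as every count of the 9 genes was at least 893.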
